A study of Mus musculus with 2 samples.

Results

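The genes of the mitochondrial respiratory chain and its ATP synthase were followed in mouse small intestinal organoids, cultures of gut epithelium that hold crypt and differentiated cells. The members were chosen by name: gene entries for subunits of complex I (Ndufa, Ndufb, Ndufc, Ndufs and Ndufv), complex II (Sdha to Sdhd), complex III (Uqcr), complex IV (Cox4 to Cox8) and complex V (Atp5), with the protein-coding genes of the mitochondrial genome (mt-). Of 106 entries that matched, 101 had at least 10 UMIs (unique molecular identifiers, each counted as 1 captured transcript) and were kept as members, 88 encoded in the nucleus and 13 in the mitochondrial genome. The nuclear members were 36 genes of complex I, 4 of complex II, 8 of complex III, 16 of complex IV, 16 of complex V and 8 Ndufaf genes, which encode assembly factors of complex I and are not subunits. The mitochondrial members were 7 genes of complex I, 1 of complex III, 3 of complex IV and 2 of complex V. The 5 entries under the minimum were Cox4i2, Cox7b2, Cox8b, Cox8c and a second identifier of Atp5o.

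The study compared control with melatonin-treated organoids on culture day 3, with cells of 3 independent organoid lines pooled into 1 droplet-based 3′ library per treatment. Strain, age and dose were not given in the sources used here. The files deposited for both treatments were identical, 1 matrix with 21806 barcodes, in which a suffix marks 2 sets of barcodes, called set 1 and set 2 here. No label ties a suffix to a treatment, so no comparison of melatonin with control was made, and set 2 over set 1 is an arbitrary direction. Each set is a single pool, so no test between samples was possible and intervals cover counting error only.

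The respiratory chain passes electrons from NADH and succinate through complexes I to IV to oxygen and pumps protons, and complex V uses the proton gradient to make ATP. Complexes I, III, IV and V are built from subunits of both genomes, whereas complex II is wholly nuclear. In the intestine, absorptive enterocytes are rich in mitochondria, and crypt stem cells are also known to respire.

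Cells were kept if they had 500 genes or more, 1000 UMIs or more and an mt- share that did not exceed 20%, 2300 in set 1 and 1766 in set 2. A further 6110 barcodes of set 1 and 3671 of set 2 met the gene and UMI minimum and lay above that limit, and 7959 fell under the minimum. Kept cells had a median of 26763 and 25664.5 UMIs outside the mt- genes, against 1644 and 2332 above the limit. The mt- genes of the annotation are the 13 mitochondrial members themselves, so the limit is set on their own sum. Their total per cell is therefore given only as a description, and nuclear levels are given as CPM, counts scaled to the usual CPM total over the UMIs outside the mt- genes. UMIs mark 3′ ends and are not scaled by length, so levels are compared between cells for 1 gene, not between genes. There were 29 barcode sequences that occurred with both suffixes. Markers of epithelial types were present, while lists for immune, mesenchymal and endothelial cells summed to at most 5.47 CPM in kept cells, with Ptprc, Col3a1, Dcn, Lum and Cldn5 at 0. Cells were assigned to types by marker level (the levels were set after they had been seen), and cells past the level of more than 1 differentiated type were left out of the typed groups.

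The summed level of the nuclear members differed most between enterocyte-gated and enteroendocrine-gated cells. In set 1 it was 57751 CPM in enterocyte-gated cells (142 cells), 46898 in cells gated as proliferating only, 46742 in stem only, 45824 in cells past no gate, 44502 in stem and proliferating cells (1015 cells) and 32146 in enteroendocrine-gated cells (231 cells). In set 2 the same groups had 58388, 45000, 43941, 45624, 42803 and 30521 CPM, from 189 enterocyte-gated, 517 stem and proliferating and 247 enteroendocrine-gated cells among others. The enterocyte gate was thus highest and the enteroendocrine gate lowest of the 6 in each set, and the others lay between them in an order that differed between the sets. Among single cells with at least 10000 UMIs (121 of 142 and 174 of 189 enterocyte-gated cells), the 5th to 95th percentile of the enterocyte gate ran from 44892 to 74093 CPM in set 1 and from 41006 to 74301 in set 2. That of the enteroendocrine gate (195 of 231 and 208 of 247 cells) ran from 23708 to 41069 and from 22907 to 38814 CPM, and among cells of this depth the ranges did not overlap in either set. Goblet, Paneth and revival gates held at most 37 cells in a set and are not compared.

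**Figure D1:**
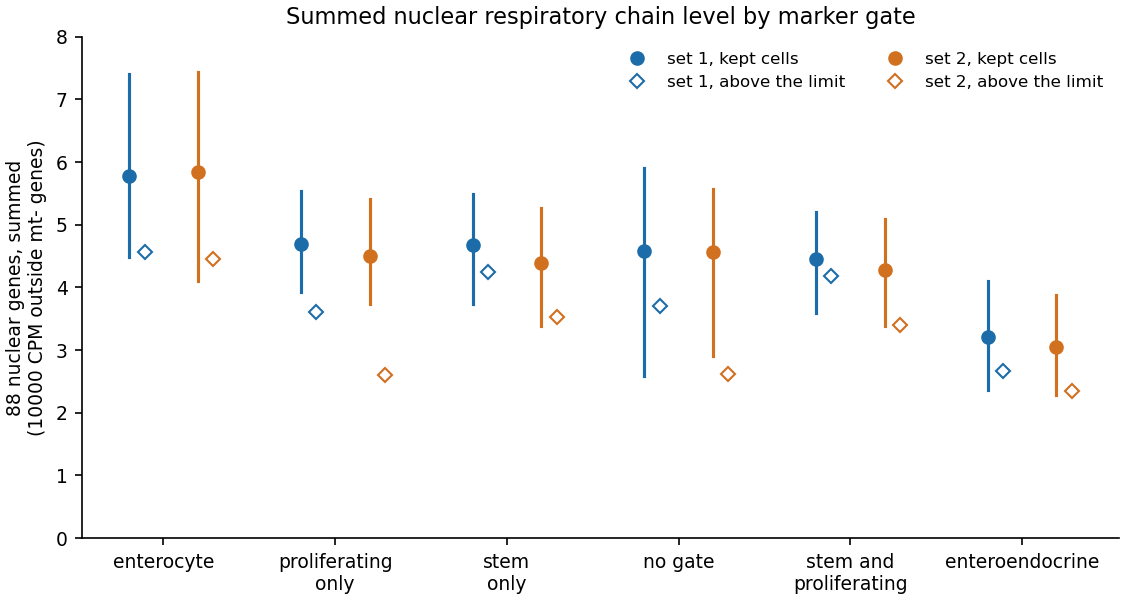
Summed level of the 88 nuclear members (y axis, in 10000 CPM outside the mt- genes) by marker gate and set; points are the sum over kept cells, lines the 5th to 95th percentile of single kept cells with at least 10000 UMIs, and open diamonds the sum over barcodes of the same gate above the mitochondrial limit. The enterocyte gate is highest and the enteroendocrine gate lowest among kept cells of each set, at 57751 and 32146 CPM in set 1.

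Enteroendocrine-gated cells, the hormone-secreting cells of the epithelium, held less nuclear respiratory chain RNA than the other kept cells. The summed log2 ratio was -0.50 in set 1 (95% interval -0.51 to -0.49) and -0.56 in set 2 (-0.57 to -0.55). A member was called where its ratio on CPM + 1 passed 1.5-fold with the 2 exact Poisson 95% intervals apart, in the same direction in each set. Of 87 members compared, 39 were called lower and 1 higher, beside 13% of all genes called lower and 32.0% called higher. The median log2 ratio of the members was -0.57 and -0.64, while that of all 13850 genes was 0.40 and 0.29.

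By complex, the members called lower were 14 of 36 in complex I, 3 of 4 in complex II, 5 of 8 in complex III, 7 of 15 in complex IV, 4 of 16 in complex V and 6 of 8 assembly factors. The assembly factors had the lowest median log2 ratio, -0.93 in set 1 and -1.04 in set 2, followed by complex II at -0.72 and -0.94. Complex V and complex I were nearer to the other cells, at -0.49 and -0.58 for complex V and -0.50 and -0.56 for complex I.

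In complex I, Ndufa10, a supernumerary subunit, was at 128 CPM in enteroendocrine-gated cells of set 1 and 118 in set 2, against 269 and 263 in the other kept cells. The ratio was 0.480 and 0.449, with intervals apart in each set. In complex IV, Cox7b was at 408 and 361 CPM against 990 and 933. Ndufa4, once counted to complex I and now known as a subunit of cytochrome c oxidase, was at 455 and 470 CPM against 1123 and 1195. The assembly factor Ndufaf2 rested on 69 and 58 UMIs, at 22.4 and 16.2 CPM against 57.7 and 64.3. These are among the members that the naming rule (at least 50 CPM on a side, largest change in the same direction) puts lowest.

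Ndufv3 went the other way. This gene of a small complex I flavoprotein subunit was at 587 CPM (95% interval 560 to 614) and 512 CPM (489 to 536) in enteroendocrine-gated cells, against 284 and 307 in the other kept cells, a ratio of 2.06 and 1.66. It was also high in enterocyte-gated cells, at 432 and 490 CPM, and lowest in crypt gates. Ndufa1, another complex I subunit, was at 308 and 432 CPM against 224 and 288. Its ratio was 1.38 in set 1, short of the fold. Cox7a2l, which encodes a factor of supercomplex assembly, was at 924 and 710 CPM against 656 and 610, also short of the fold. In the barcodes above the mitochondrial limit, Ndufv3 was at 511 and 439 CPM in the enteroendocrine gate against 343 and 351, a ratio of 1.49 and 1.25 that did not pass the call, with intervals not apart in set 2. Cox7a2l was again higher there, at 566 and 525 CPM against 460 and 363, with intervals apart in each set.

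Depth and composition of the RNA differed along with this gate. Enteroendocrine-gated cells had a median of 12876 and 13624 UMIs outside the mt- genes, against 33916 and 35608 in stem and proliferating cells, and their cytosolic ribosomal protein genes took 17.0% and 14.4% of these UMIs, against 37.6% and 34.8%. RNAs retained in the nucleus summed to 21379 and 33069 CPM, against 3467 and 7151, and their part in the result was not tested. Among cells with 10000 to 40000 UMIs in and outside the gate, the summed log2 ratio was -0.54 and -0.57. With ribosomal protein genes also left out of the scale, every gene's ratio in this gate dropped by a further 0.38 and 0.35, the summed ratio was -0.88 and -0.91, Ndufv3 was no longer called, and 67 members were called lower, beside 19.9% of all genes. With all marker genes left out of the scale, the summed ratio was -0.39 and -0.38, and 25 members were called lower, beside 10.9% of all genes.

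Enterocyte-gated cells, the absorptive cells, held more. The summed log2 ratio to the other kept cells was 0.40 in set 1 (0.39 to 0.40) and 0.48 in set 2 (0.47 to 0.48). Of 87 members, 12 were called higher and 2 lower, beside 10.2% of all genes higher and 17.9% lower. The members' median was 0.36 and 0.41, against -0.24 and -0.28 over all genes. The 12 were Ndufa1, Ndufa6, Ndufb10 and Ndufc1 of complex I, Sdhb and Sdhd of complex II, Uqcrfs1 of complex III, and Cox5a, Cox6c, Cox7a1, Cox7a2 and Cox7c of complex IV. No member of complex V was called, although its median was 0.37 and 0.41.

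Cox7a1 stood out within complex IV. It encodes the form of subunit VIIa known from heart and skeletal muscle, whereas Cox7a2 encodes the widely expressed form. Cox7a1 was at 150 CPM (138 to 163, 564 UMIs) and 148 CPM (138 to 159, 828 UMIs) in enterocyte-gated cells. In the other 5 gates it ran from 12 to 23.1 CPM in set 1 and from 7.54 to 15.1 CPM in set 2, with no overlap with the enterocyte gate. The ratio to all other kept cells was 9.95 and 14.2. Above the mitochondrial limit the same gate had 135 and 120 CPM, against 20.7 and 7.94 in the other barcodes. Cox7a2 was also higher, at 1291 and 1270 CPM in enterocyte-gated cells, a ratio of 1.52 and 1.62.

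Cox6a2, the muscle form of complex IV subunit VIa, was near the limit of detection, with 10 UMIs in kept cells of set 1 and 5 in set 2. Cox6b2, the testis-type form of subunit VIb, was low but detected, with 317 and 202 UMIs in kept cells. It was at 2.13 and 0.358 CPM in enterocyte-gated cells (8 and 2 UMIs) and at 6.67 and 5.50 CPM in stem and proliferating cells. It was 1 of the 2 members called lower in enterocytes. Cox4i1, the common form of subunit IV, was at 2369 and 2283 CPM in enterocyte-gated cells, a ratio of 1.35 and 1.41 that did not pass the fold.

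Of the remaining named enterocyte members, Ndufa1 was at 455 and 597 CPM against 212 and 258. Sdhb, the iron-sulfur subunit of succinate dehydrogenase, was at 327 and 294 CPM against 200 and 180. Sdhd, a membrane anchor of the same enzyme, was at 410 and 418 CPM against 267 and 248. Ndufa6 was at 976 and 886 CPM against 602 and 532, and Ndufb10 at 472 and 514 against 283 and 317. Cox5a, a nuclear subunit of complex IV, was at 1187 and 1202 CPM in enterocytes and at 448 and 420 CPM in enteroendocrine cells, so that it was called in each gate, in opposite directions.

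The 3 genes for subunit c of ATP synthase, which encode the same mature protein, did not move together. Atp5g1 was at 1153 and 1158 CPM in enterocyte-gated cells and 1058 and 941 in stem and proliferating cells. Atp5g3 was at 905 and 983 CPM in enterocytes against 673 and 674 in stem and proliferating cells. Atp5g2 had the reverse order, 648 and 555 CPM in enterocytes against 882 and 801 in stem and proliferating cells, with intervals apart in each set. Its log2 ratio was -0.34 and -0.38 in the enterocyte gate, 0.33 and 0.32 in the stem and proliferating gate and -0.84 and -0.81 in the enteroendocrine gate, of which only the last passed the fold. The precursors differ in their targeting sequences. How reads shared between them were counted is not given in the sources used here.

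The assembly factors of complex I had a median log2 ratio of -0.38 and -0.40 in enterocytes, against 0.29 and 0.34 for the subunits of complex I and -0.24 and -0.28 for all genes. Of the 8, 1 was called lower and 0 higher, beside 17.9% of all genes lower and 10.2% higher. Ndufaf8 was near the other kept cells, at 119 and 121 CPM against 113.7 and 108.5, and Ndufaf3 differed in sign between the sets, at 45.5 and 34.5 CPM against 41.75 and 38.0. Ndufaf6, the 1 called lower, was at 18.4 and 14.3 CPM in enterocytes against 34.6 and 28.6 CPM in stem and proliferating cells. Ndufaf4, which missed the fold, was at 51.9 and 54.9 CPM against 75.9 and 81.2 in all other kept cells, and Ndufaf2 at 39.9 and 34.0 against 56.9 and 64.2. The subunit Ndufs8 was also lower without passing the fold, at 162 and 124 CPM against 185 and 161.

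**Figure D2:**
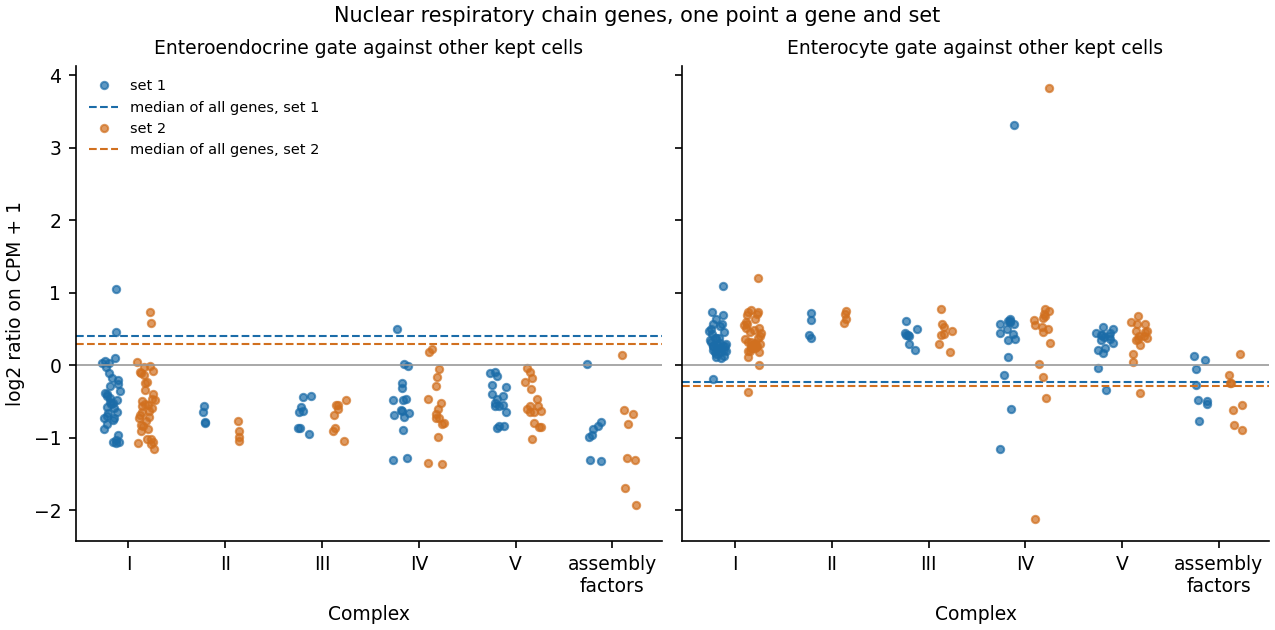
Log2 ratio on CPM + 1 of each nuclear member (1 point a gene and set) in the enteroendocrine gate (left) and the enterocyte gate (right) against the other kept cells, by complex; dashed lines are the median of all genes. Most members lie below 0 and below the dashed lines on the left and above them on the right, where Cox7a1 is the highest point (3.31 and 3.82) and the assembly factors lie lower.

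The ribosomal protein share was lower in enterocyte-gated cells too, 24.95% and 20.05%. With those genes left out of the scale, every ratio in this gate moved by -0.22 and -0.25, and the summed log2 ratio was 0.17 and 0.22. Then 2 members were called higher and 5 lower, beside 7.48% and 27.4% of all genes. The other kept cells in this ratio include the enteroendocrine gate, at 38733 and 35669 CPM on this scale. The enterocyte gate was at 76951 and 73028 CPM, close to stem only (75548 and 70346) and proliferating only (75344 and 69249). Cells of no gate were at 71939 and 71722 CPM, and stem and proliferating cells at 71299 and 65663. With a mitochondrial limit of 10%, 2 members were called higher, beside 3.14% of all genes, and the summed ratio was 0.20 and 0.26. Cells with 10000 to 40000 UMIs gave 0.42 and 0.53.

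**Figure D3:**
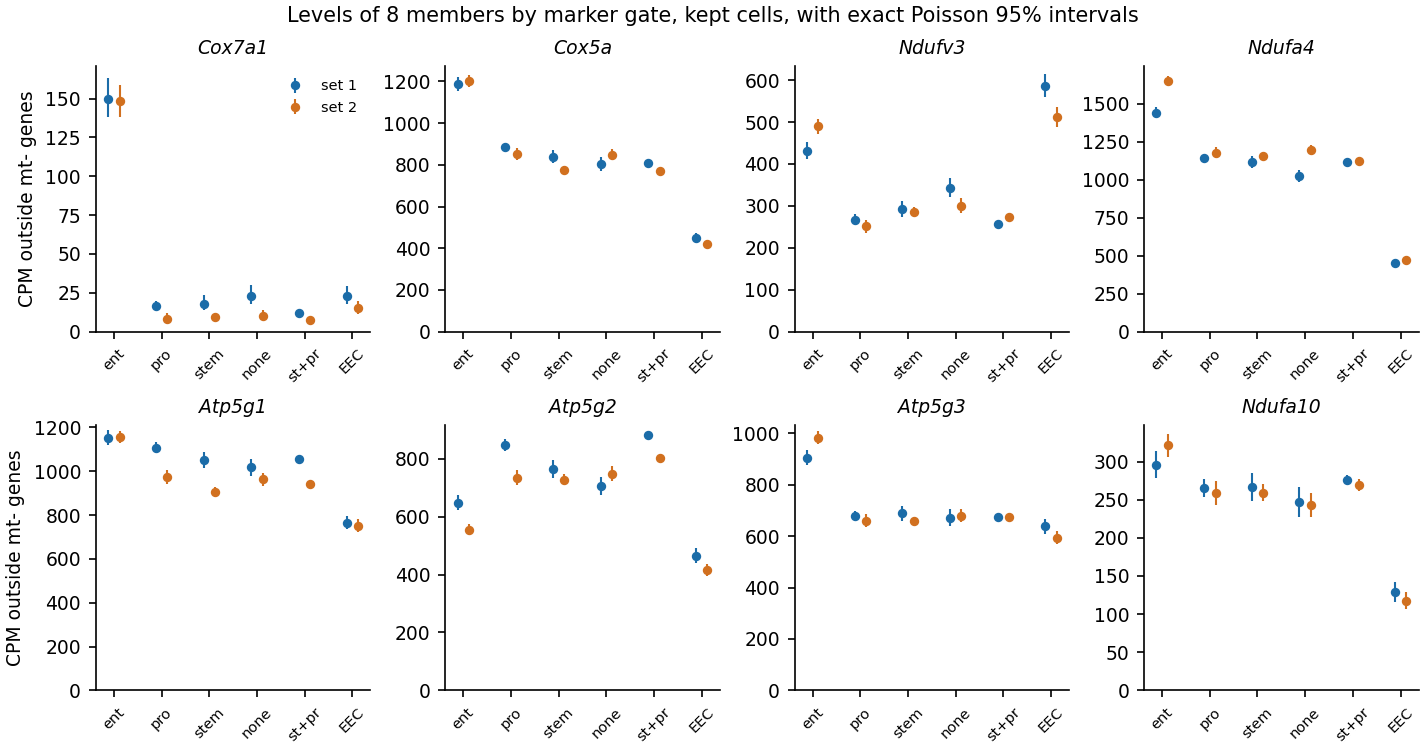
CPM outside the mt- genes (y axis, from 0) of 8 members in kept cells by gate (ent, enterocyte; pro, proliferating only; stem, stem only; none, no gate; st+pr, stem and proliferating; EEC, enteroendocrine) and set, with exact Poisson 95% intervals. Cox7a1 is highest in the enterocyte gate (150 and 148 CPM), Ndufv3 is highest in the enteroendocrine gate (587 and 512 CPM), and Atp5g2 is lower in the enterocyte gate than in the stem and proliferating gate while Atp5g3 is higher.

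Stem and proliferating cells, the crypt base cells with both marker lists, sat at the level of the other kept cells. The summed log2 ratio was -0.02 (-0.03 to -0.02) and -0.06 (-0.07 to -0.06). No member was called higher and 1 lower, beside 2.72% of all genes higher and 14.7% lower. The 1 called lower was Cox7a1, at 12 and 7.54 CPM. Among members that missed the fold, the assembly factors had a median of 0.31 and 0.30, Ndufv3 was at 257 and 273 CPM against 370 and 354, and Ndufa1 was at 197 and 225 against 277 and 345. Above the mitochondrial limit the summed ratio of this gate was 0.14 and 0.10, the opposite sign to that in kept cells.

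The signs of the called members mostly recurred in the barcodes above the mitochondrial limit, which the comparison of kept cells did not use, but fewer passed the call there. Of the 39 members called lower in the enteroendocrine gate, 39 were lower there in set 1 and 37 in set 2, beside 95.7% and 95.4% of all genes called lower, and 18 passed the call, beside 29.65% of those genes. The summed log2 ratio of that gate was -0.56 and -0.47. Of the 12 members called higher in enterocytes, 11 and 12 were higher there, beside 99.1% and 99.3% of all genes, and 4 passed the call, beside 78.7% of those genes. The summed ratio of that gate was 0.25 and 0.57. The members thus kept their sign at about the rate of any called gene.

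Genes that work beside the chain were taken from lists, and their counts stand beside the same shares of all genes called as above (13% lower and 32.0% higher in the enteroendocrine gate, 17.9% lower and 10.2% higher in enterocytes). In the enteroendocrine gate, 45 of 77 tested mitochondrial ribosomal protein genes were called lower and 0 higher, with a median log2 ratio of -0.68 and -0.72. Of 14 citric acid cycle genes 5 were lower and 0 higher, and of 5 electron carriers 2 were lower and 0 higher. Of 27 assembly genes of complexes III, IV and V outside the member rule, 7 were lower and 1 higher, and of 17 genes of biogenesis and mtDNA upkeep 2 were lower and 0 higher. In enterocytes, 4 of 14 citric acid cycle genes were higher and 0 lower, with a median of 0.36 and 0.41, beside 1 higher and 5 lower of the 77 mitochondrial ribosomal protein genes, whose median was -0.21 and -0.32. Of the 17 biogenesis genes 2 were higher and 2 lower in enterocytes, of the 27 assembly genes 4 were higher and 1 lower, and of the 5 electron carriers 0 were called in either direction. Of 7 genes of uncoupling and ADP exchange, 1 was higher and 3 lower in the enteroendocrine gate and 1 higher and 0 lower in enterocytes. In the stem and proliferating gate these lists gave 1 call, a biogenesis gene that was lower, beside 2.72% of all genes higher and 14.7% lower. The lists were chosen with earlier results of these data known.

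Across the 6 gates and 2 sets, 12 points that share libraries and scaling, most members rose and fell together. Over the 75 members at 50 CPM or more, the median Pearson correlation of a member with the sum of the others was 0.93, and 64 exceeded 0.8. How many other genes exceeded 0.8 is not given here, so this count has no background beside it. The closest were Atp5j2 (0.996), Ndufb9 (0.995), Sdhd (0.995), Cox5a (0.995) and Cox6b1 (0.995). Only Ndufv3 (-0.31) and Cox7a2l (-0.68) were negative, and Ndufa1 (0.12), Ndufb8 (0.30) and Ndufs8 (0.36) were the next lowest. Among 1500 other genes compared, the patterns most like the sum of the members were those of Chchd10 (0.990), Ckb (0.988), 2010107E04Rik (0.986), Oat (0.985) and Pitpna (0.985). These values are a description, with no test.

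The start regions of the nuclear members were searched for 3 letter motifs of factors known to act on respiratory chain genes. The sequences were RefSeq promoters, 250 bases before to 50 after the gene start, on GRCm38.p6, and 72 of the 88 nuclear members matched an entry by symbol. The NRF1 motif GCGCATGC, searched on both strands, was found in 12 members (16.7%) and in 3.05% of all 27025 genes. The ETS motif CCGGAAG was in 18 members (25%) and 9.93% of all genes, and the YY1 motif AAGATGGCG in 8 (11.1%) and 1.64%. At least 1 of the 3 was in 31 members (43.1%) and in 13.6% of all genes. These are letter matches, not measured binding. The 27025 genes were not limited to genes expressed here. Whether motif presence goes with how members moved over gates was not tested, and the regions below were picked for display. The regions of 3 members are shown with motif letters in capitals: that of Atp5g2 (chr15:102670998-102671297, minus strand), whose order over gates differed from its paralogs and which holds overlapping NRF1 matches on the 2 strands, that of Cox6b1 (chr7:30626065-30626364, minus strand), a member close to the sum of the others, with an ETS match on the reverse strand, and that of Cox7a1 (chr7:30183921-30184220, plus strand), highest in the enterocyte gate, in which no letters of the 3 motifs occur.
Atp5g2: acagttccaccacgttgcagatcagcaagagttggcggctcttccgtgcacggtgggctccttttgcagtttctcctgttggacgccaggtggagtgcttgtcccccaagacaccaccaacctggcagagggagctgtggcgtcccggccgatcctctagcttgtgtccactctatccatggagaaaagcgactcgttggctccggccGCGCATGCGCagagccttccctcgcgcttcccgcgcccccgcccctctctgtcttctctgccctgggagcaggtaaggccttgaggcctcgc
Cox6b1: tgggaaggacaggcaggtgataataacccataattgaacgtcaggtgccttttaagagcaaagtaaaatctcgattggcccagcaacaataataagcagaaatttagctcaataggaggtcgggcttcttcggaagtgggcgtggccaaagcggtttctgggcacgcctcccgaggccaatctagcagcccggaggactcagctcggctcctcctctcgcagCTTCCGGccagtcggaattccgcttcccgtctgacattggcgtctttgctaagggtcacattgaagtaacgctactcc
Cox7a1: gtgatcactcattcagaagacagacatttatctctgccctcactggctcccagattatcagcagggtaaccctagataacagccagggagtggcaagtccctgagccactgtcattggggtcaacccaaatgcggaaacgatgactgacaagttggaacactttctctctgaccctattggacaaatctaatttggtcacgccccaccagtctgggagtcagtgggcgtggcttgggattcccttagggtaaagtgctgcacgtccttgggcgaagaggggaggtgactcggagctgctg

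Among single kept cells with at least 10000 UMIs, the summed nuclear level was tightest in crypt cells. The coefficient of variation was 10.7% and 11.7% in proliferating only, 11% and 12.4% in stem and proliferating and 11.7% and 12.8% in stem only cells. It was 17.3% and 16.1% in enterocyte-gated cells and 17.97% and 15% in enteroendocrine-gated cells. Counting error alone would give a standard deviation of 1196 to 1517 CPM in these gates, against 4539 to 10001 observed. Within the enterocyte gate, cells with a higher nuclear level also had a higher mt- percentage, with a Pearson correlation over cells of 0.51 and 0.40. In the stem and proliferating gate it was -0.12 and -0.22, and in the enteroendocrine gate -0.05 and 0.06. Cells of a set share a library, so these values are only descriptive.

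Among kept cells, the mitochondrial members made up a larger share of UMIs in the enterocyte gate than in the stem and proliferating or the enteroendocrine gate. Their share was 12.7% and 13.5% in enterocyte-gated cells, 9.69% and 9.60% in stem and proliferating cells and 8.21% and 7.68% in enteroendocrine-gated cells. Kept cells were limited on this same quantity. The median per kept cell was 12.9% and 13.96% in the enterocyte gate and 7.23% and 6.72% in the enteroendocrine gate, and with no limit it was 48.6% and 38.2% and 8.88% and 7.60%. With no limit the enterocyte gate was not the highest: the median was 48.7% and 47.4% in proliferating only cells and 57.5% and 50.8% in cells of no gate. Of all barcodes of a gate that met the gene and UMI minimum, 71.4% and 65.6% lay above the limit in the enterocyte gate and 28.5% and 22.6% in the enteroendocrine gate. The share above the limit was 44.75% and 52.8% in the stem and proliferating gate, 82.6% and 85.4% in proliferating only cells and 89.7% and 85.8% in cells of no gate. A gate needs 3 markers with a UMI, so these shares also depend on depth. Per UMI of the nuclear members there were 2.51 and 2.67 mt- UMIs in enterocyte-gated, 2.41 and 2.48 in stem and proliferating and 2.78 and 2.73 in enteroendocrine-gated kept cells. The limit bounds these ratios. Above it they were 28.2 and 21.8 in the enterocyte gate, 16.5 and 16.8 in the stem and proliferating gate and 22.0 and 23.8 in the enteroendocrine gate.

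The composition of the mitochondrial UMIs leaves their total out of account. In kept cells mt-Atp6, a subunit of complex V, took 20.75% of mt- UMIs in set 1 and 20.85% in set 2. The complex IV genes mt-Co3, mt-Co2 and mt-Co1 took 18% and 17.5%, 15.5% and 15.2%, and 13.6% and 14.2%. At the other end, mt-Nd6, the only member encoded on the light strand of the mitochondrial genome, took 0.135% and 0.103%. These are shares of 3′ UMIs, not scaled by length. Exact binomial 95% intervals were narrow, 13.58% to 13.64% for mt-Co1 in set 1.

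Composition differed between gates beyond the counting error. A mt- gene was counted as shifted where its share differed by over 1.1-fold with intervals apart, in the same direction in each set. In enteroendocrine-gated cells 3 of 13 were higher, mt-Co1, mt-Nd4 and mt-Nd5, and 5 lower, mt-Nd1, mt-Nd2, mt-Nd3, mt-Nd6 and mt-Atp6. mt-Co1, the catalytic core of complex IV, took 19.9% and 19.6% there, a ratio of 1.49 and 1.42 to the other kept cells. mt-Nd5, a proton-pumping subunit of complex I, took 1.36% and 1.49%, a ratio of 1.38 and 1.52. mt-Nd1, of the same complex, went down to 6.14% and 6.01%, a ratio of 0.743 and 0.773. mt-Nd6 took 0.0596% and 0.0529% (164 and 158 UMIs), a ratio of 0.431 and 0.4998.

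In enterocytes mt-Co1 was the 1 gene with a higher share, 15.8% and 17.6%, a ratio of 1.18 and 1.31. The genes mt-Atp8, mt-Nd5, mt-Nd6 and mt-Cytb were lower, with ratios of 0.724 and 0.663 for mt-Atp8, 0.582 and 0.561 for mt-Nd6 and 0.872 and 0.748 for mt-Cytb, the mitochondrial subunit of complex III. In stem and proliferating cells the order was turned, with mt-Nd6 higher (1.52 and 1.53) and mt-Co1 lower (0.871 and 0.825). Each gate is among the other kept cells that the other gates are set against, so these opposite signs are not independent. Above the mitochondrial limit, 3 of the 8 enteroendocrine shifts passed again, those of mt-Co1, mt-Nd4 and mt-Nd1, and 5 did not, among them mt-Nd5 (1.07 and 1.09) and mt-Nd6 (0.864 and 0.768, with intervals apart only in set 2). mt-Co1 again had a higher share in the enteroendocrine gate (1.28 and 1.24) and in the enterocyte gate (1.45 and 1.46) and a lower one in the stem and proliferating gate (0.863 and 0.839). mt-Nd5 did not keep its direction in enterocytes, at 0.884 and 0.840 in kept cells and 1.19 and 1.13 above the limit. With a limit of 10% in place of 20%, no gene passed in the enterocyte gate, and by the mean of each cell's composition mt-Co1 did not pass 1.1-fold in each set.

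**Figure D4:**
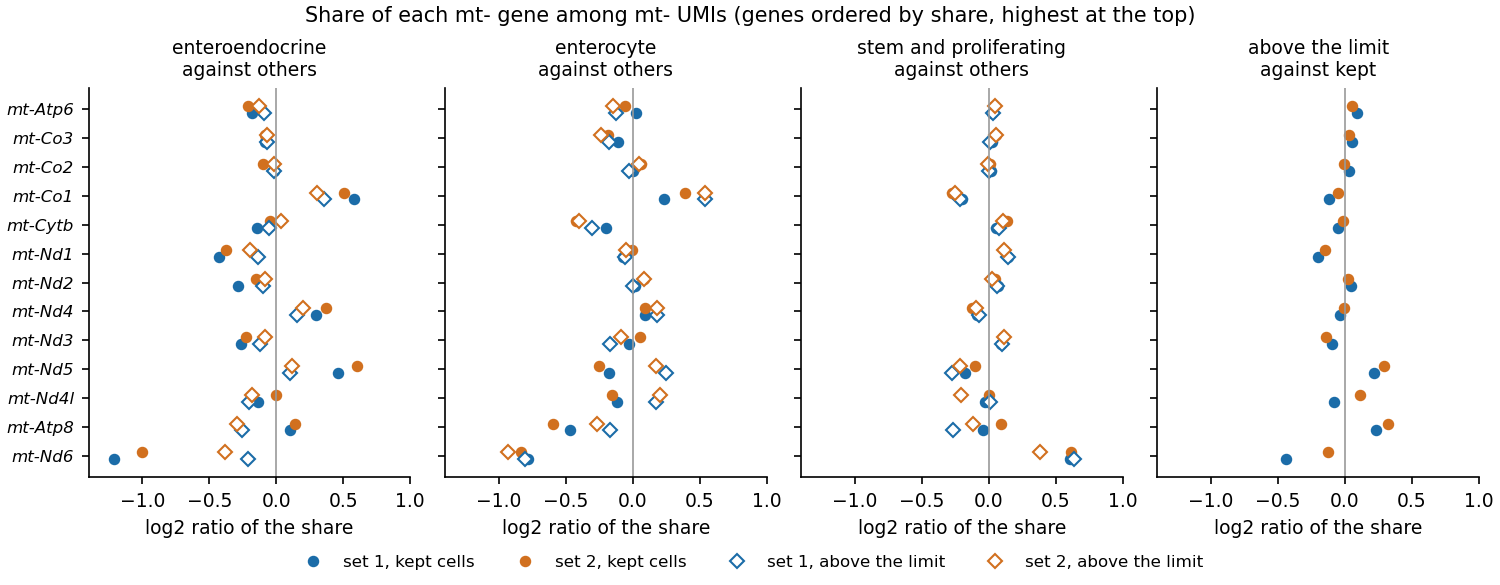
Log2 ratio of each mitochondrial member's share of mt- UMIs (x axis) in 3 gates against the other barcodes, in kept cells (filled) and above the limit (open diamonds), and above the limit against kept cells (right); genes are ordered by their share in kept cells of set 1. mt-Co1 lies to the right in the enteroendocrine and enterocyte gates and to the left in the stem and proliferating gate in each set, and mt-Nd6 lies the other way.

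Barcodes above the mitochondrial limit had a lower summed level of the nuclear members than kept cells. The summed level was 39018 CPM against 44802 in set 1 (log2 -0.20, -0.20 to -0.20) and 32331 against 43956 in set 2 (-0.44, -0.45 to -0.44). No member was called higher and 1 lower, beside 18.5% of all genes higher and 2.75% lower. The members' median was -0.22 and -0.44, against 0.23 and 0.28 over all genes. The 1 called lower was Atp5g2, at 512 and 380 CPM against 811 and 704.

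Over bins of the mt- percentage the level did not fall steadily. In set 1 it was 43904 CPM at 0 to 10%, 46568 at 10 to 20%, 42149 at 20 to 30%, 38373 at 30 to 50%, 37424 at 50 to 80% and 42034 at 80 to 100%. In set 2 the same bins had 42342, 47060, 40767, 30589, 24551 and 32617 CPM. Both sets were highest just under the limit and lowest at 50 to 80%, and the sets parted above 30%. The gates differ in how many of their barcodes lie above the limit, and the part of gate makeup in this profile was not tested.

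Members differed in how far they moved above the limit. The lowest by the naming rule, beside Atp5g2, were Ndufb5 at 360 and 248 CPM against 521 and 478, Cox5a at 578 and 421 against 815 and 806, Ndufa8 at 199 and 164 against 284 and 287, and Ndufb2 at 156 and 118 against 221 and 210. The highest were Uqcrc1, a core protein of complex III, at 344 and 368 CPM against 275 and 279, Ndufb7 at 331 and 349 against 267 and 270, Ndufs1, the largest complex I subunit, at 90.8 and 85.7 against 76.0 and 68.4, Ndufa13 at 568 and 536 against 460 and 475, and Ndufa3 at 259 and 302 against 231 and 267. All 10 had intervals apart in each set. None but Atp5g2 passed the fold in each set.

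Against shallow kept cells the direction was the opposite. Kept cells with under 10000 UMIs, 491 in set 1 and 222 in set 2, had 36159 and 29982 CPM, against 45020 and 44190 in deeper kept cells, and the barcodes above the limit were higher than these shallow kept cells (log2 0.11 and 0.11). These shallow cells also differed from the deeper ones in ribosomal share (30.8% and 24.96% against 35.1% and 31.5%) and in RNAs retained in the nucleus (16127 and 28092 CPM against 5378 and 9708), so depth was not isolated. Scaled to all UMIs, mt- genes included, which moved every gene's ratio by -0.96 and -0.75, the summed ratio was -1.16 and -1.20 and 79 members were lower, beside 27.3% of all genes. Cytosolic ribosomal protein genes took 26.5% and 21.1% above the limit and 35.0% and 31.4% in kept cells. The RNAs retained in the nucleus (Malat1, Neat1 and Kcnq1ot1) summed to 14115 and 24472 CPM above it and 5643 and 10010 in kept cells. The part of these in the result was not tested.

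**Figure D5:**
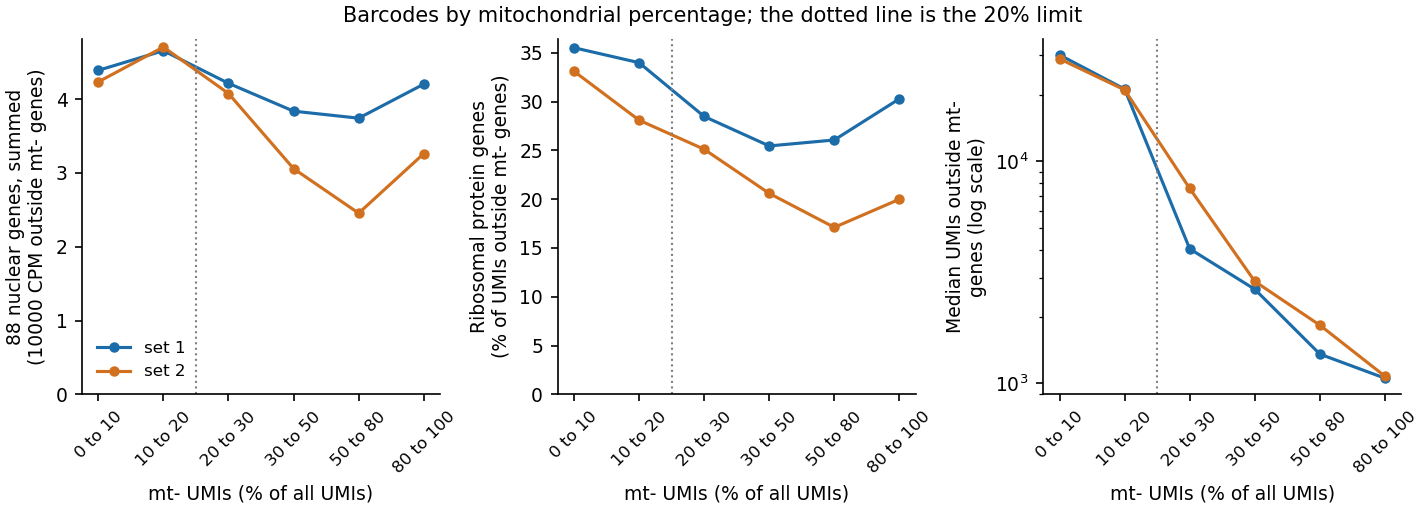
Summed level of the 88 nuclear members, share of cytosolic ribosomal protein genes and median UMIs outside the mt- genes (log axis) for barcodes binned by their mt- percentage, by set; the dotted line is the 20% limit. The nuclear level peaks at 10 to 20% in each set (46568 and 47060 CPM), and ribosomal share and depth are lower in every bin past the limit than under it.

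Among the mitochondrial members, the barcodes above the limit had a higher share of mt-Atp8 (ratio 1.18 and 1.25) and mt-Nd5 (1.16 and 1.23) and a lower share of mt-Nd1 (0.869 and 0.903). The other 10 genes did not pass 1.1-fold in the same direction in each set. mt-Nd6 was at 0.738 and 0.9175, and mt-Nd4l at 0.943 and 1.08. By the mean of each barcode's composition, or with the top 5% of UMI counts left out, mt-Nd1 no longer passed.

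Between the 2 sets the nuclear members differed little. The summed level in kept cells was 44802 CPM in set 1 and 43956 in set 2, a log2 ratio of -0.03 (-0.03 to -0.02). No member was higher in set 2 and 1 lower, beside 2.62% of all genes higher and 1.54% lower. The 1 lower was Ndufa4l2, a gene known for induction in low oxygen, with 71 UMIs in 44 cells of set 1 and 15 in 8 cells of set 2, where 3 cells held 22.5% and 66.7% of them. It was at 1.28 and 0.325 CPM, and the call ended with a pseudocount of 10 CPM and in cells with at least 10000 UMIs. The members with the highest ratio, short of the fold, were Ndufa1 at 229 and 299 CPM (0.39 on the log2 scale), Ndufa3 (0.21), Ndufb10 (0.21), Atp5k (0.15) and Ndufs5 (0.14). Among the lowest were Ndufs8 (-0.23), Ndufs7 (-0.22), Atp5g2 (-0.20) and Ndufb8 (-0.19). Within gates the summed log2 ratio of set 2 over set 1 ran from -0.09 in stem only to 0.02 in enterocyte-gated cells. Between 0 and 3 members were lower and 0 higher in each gate, beside 1.35% to 4.77% of all genes lower and 1.2% to 3.22% higher. The sets differ in their share of enterocyte-gated and enteroendocrine-gated cells, and which set was treated cannot be told.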

How the data were processed

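Whole-number UMI counts per gene and barcode were used as the authors deposited them. Cell Ranger 3.1.0, STAR 2.7.3a and bcl2fastq 2.20.0 are named in the submitters' processing notes, while the genome build, the annotation and the barcode filter are not given in the sources used here. The 3 files of each treatment were identical, so 1 matrix was analysed and split by barcode suffix.

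UMIs were summed over the cells of a gate and set and scaled to CPM outside the mt- genes, with exact Poisson 95% intervals for levels and exact binomial intervals for shares, in Python 3.11.15 with numpy 2.4.6, scipy 1.17.1 and pandas 2.3.3. Both cover counting error only. Ratios used a pseudocount of 1 CPM. A gate needed a summed marker level per 10000 UMIs of 100 (enteroendocrine, enterocyte), 50 (goblet, Paneth), 10 (revival, proliferating) or 5 (stem), with at least 3 markers detected. Gates with fewer than 50 cells in a set were not compared. No doublet caller was run and free RNA was not removed. The calls and summed ratios were tested on simulated counts that hold counting error only. That test does not cover variation between cells or cultures, the gates or the mt- shares.

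For each comparison the 5 highest and 5 lowest nuclear members with at least 50 CPM on a side and intervals apart were named, with all mitochondrial members, the isoform families and Sdha to Sdhd, and other called members were named after their values were seen. Of these, 1 member that this rule names is not reported here. The members, lists and gates were chosen with earlier results of these data known. Alternatives changed the scale, pseudocount, mitochondrial limit, gate level, depth and cells used.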

Additional observations from a re-analysis of the deposited data

How the results depend on the processing

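Each treatment is a single pool and the sets carry no treatment label, so counting intervals leave out variation between cultures, and gates, free RNA and doublets limit every gate comparison. Against all other kept cells, the enteroendocrine deficit and the enterocyte excess in the summed level kept their sign under every alternative run. They ran from -0.88 to -0.39 and from 0.17 to 0.47 in set 1, and from -0.91 to -0.38 and from 0.22 to 0.55 in set 2. With ribosomal protein genes out of the scale, the enterocyte gate was close to the stem only and proliferating only gates. The numbers of members called did not hold as well, and where no cause is named it was not tested.

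With ribosomal protein genes out of the scale (chosen after seeing the data, as were the marker-free scale, the halved gate, no mitochondrial limit and the depth splits at 10000 UMIs), 67 members were lower and 0 higher in the enteroendocrine gate (all genes 19.9% and 22.8%), 2 higher and 5 lower in enterocytes (7.48% and 27.4%), 1 higher in the stem and proliferating gate (4.9%) and 13 lower above the limit (6.17%). Without markers in the scale 25 were lower in the enteroendocrine gate (10.9%). Scaled to all UMIs, 79 were lower above the limit (27.3%) and 5 higher in enterocytes (9.37%). With a 10% limit, 3 were higher in the enteroendocrine gate (all genes 32.9%), 2 higher and 0 lower in enterocytes (3.14% and 3.27%), and 1 higher and 0 lower above the limit (8.52% and 2.09%). Doubling the enterocyte gate gave 19 higher and 5 lower (11.7% and 21.4%), halving it 2 higher and 1 lower (7.05% and 9.72%). Enterocyte members called lower were 1 with assembly factors left out, with at least 1000 UMIs, with the mean of each cell's CPM or without the top 5% of UMI counts (all genes 17.9%, 17.9%, 27.1% and 18.7%), and 0 with a pseudocount of 10 CPM (8.4%). Above the limit, members called lower were 2 with a pseudocount of 0.1 CPM (all genes 2.95%) or without the top 5% (3.9%), and 0 with the mean of each cell's CPM (4.46%). Against kept cells under 10000 UMIs 2 were higher and 0 lower (all genes 1.6% and 2.2%), and the summed log2 ratio turned to 0.11 in each set (0.1098 and 0.1088). The member lower in set 2 was lost, leaving 0, with a pseudocount of 10 CPM, at least 1000 UMIs per member (a filter that removes it) or cells of at least 10000 UMIs (all genes 0.233%, 1.54% and 1.52%).

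The summed log2 ratio of the stem and proliferating gate turned positive with ribosomal genes out of the scale (0.12 and 0.056), a 10% limit (0.059 and 0.054), the mean of each cell's CPM (0.099 and 0.041), and in set 1 with the gate halved (0.015) or no limit (0.048). Ndufaf6 in enterocytes turned to 0.091 in set 1 with the mean of each cell's CPM and to 0.049 in set 2 with a 10% limit.

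For the mitochondrial shares, a 10% limit left 0 higher and 0 lower in enterocytes, where mt-Atp8 (0.060) and mt-Nd5 (0.061) turned positive in set 1, and 2 higher and 2 lower in the stem and proliferating gate. The mean of each cell's composition gave 0 higher in enterocytes and 2 higher and 2 lower in the stem and proliferating gate. Above the limit, shares called lower were 0 with that mean or without the top 5%, and 2 with over 50% mitochondrial UMIs. Enteroendocrine shares gave 3 higher and 5 lower under every alternative run. No paired analysis was possible because each treatment has 1 library and the sets are not tied to treatments.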
